A study of Mus musculus with 2 samples.

Results

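Cholesterol and fatty acid synthesis genes were read in mouse common myeloid progenitors, the bone marrow cells that later form granulocytes, monocytes, megakaryocytes and red cells. The set was a list of 29 gene symbols that cover the supply of acetyl-CoA, the mevalonate arm, the steps from squalene to cholesterol, fatty acid synthesis and desaturation, the regulators of both pathways and 1 sterol carrier. All 29 were found, out of 43346 Ensembl genes in the deposited gene tables. The data were 2 libraries of 1 group, primary cells from adult male mice of strain C57BL/6J at an age of 5 to 6 weeks, with no treatment and no second condition named in the labels. Total RNA was depleted of ribosomal RNA, and 100 ng of it went into each library. The libraries are called replicate 1 and replicate 2, as biological replicates in the labels, but both carry 1 donor label, so the spread between them may be technical.

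Cells build cholesterol by condensing acetyl-CoA into mevalonate, turning mevalonate into isoprenoid units, joining these into squalene and folding squalene into sterols. Fatty acids are built from the same acetyl-CoA. Both pathways are driven by the SREBP transcription factors, which are made as membrane precursors, escorted by Scap to the Golgi for cleavage when sterols are scarce, and held in the endoplasmic reticulum by Insig proteins when sterols are plentiful. SREBP-2 acts mainly on cholesterol genes and SREBP-1 mainly on fatty acid genes. Dividing blood progenitors need both lipids for new membranes.

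Levels below are TPM, a relative abundance corrected for transcript length, which allows different genes to be compared. Ratios between libraries use CPM, expected counts as a share of the library total (scaled between libraries by TMM, except beside counting intervals), which is not corrected for length. Replicate 1 held 28158803 expected counts and replicate 2 held 84041054, which is 2.98 times as many. A count of 0 allows up to 3 counts, or 0.107 CPM in replicate 1 and 0.0357 CPM in replicate 2, for counting error only. Over 9116 nuclear protein-coding genes at 1 TPM or more in both libraries, called expressed coding genes below, the median log2 TPM ratio of replicate 2 over replicate 1 was 0.20 while the median log2 CPM ratio was 0.00. A TPM somewhat higher in replicate 2 was therefore common to most genes. Of 5 progenitor genes, Cd34, Kit, Myb and Mpo stood at 123, 36.6, 95.1 and 357 TPM on average, and Ly6a, the stem cell antigen, at 0.71. The 3 late neutrophil markers summed to 14.9 and 14.8 TPM, nearly all of it Camp. Of 3 steroidogenic markers, Star had 83 and 50 counts, or 0.42 and 0.10 TPM. Cyp11a1 had 0 and 1 counts, and Hsd3b1 had 0 in both libraries. Markers of B cells, T cells, macrophages, red cells, platelets and stroma were each under 1 TPM in both libraries. Their part in the levels below was not tested. All 5 adipocyte markers had 0 counts in both libraries. Of 4 hepatocyte markers, the only one with counts was Apoa1, with 2 in replicate 2.

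Transcripts of both pathways were detected in both libraries, for most genes below the median of expressed coding genes. TPM reached 1 in both libraries for 24 of the 29, or 82.8%, beside 42.5% of 21461 nuclear protein-coding genes, and the lowest mean expected count was above 100, so none was lost to a filter on low counts. The median level was 3.91 TPM in replicate 1 and 5.09 in replicate 2, or 4.50 ± 0.834 over both (mean ± SD, n = 2, as in all such values below). Of the 29, 9 lay above the median of expressed coding genes, which was 7.24 ± 0.750 TPM. Glycolytic enzymes, 12 genes read for scale, had a median of 43.9 ± 4.58 TPM. In bulk RNA, fewer cells of a type that make a transcript and less RNA per cell cannot be told apart.

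**Figure D1:**
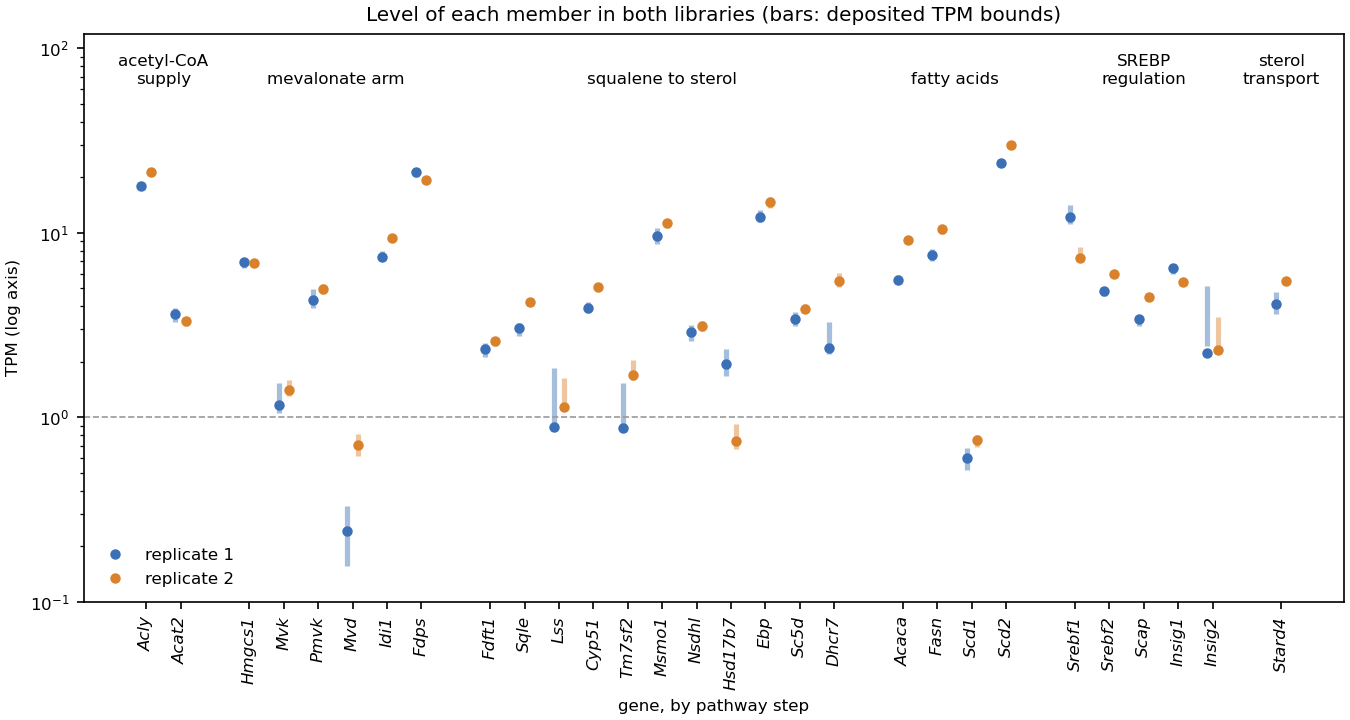
TPM of each of the 29 genes (log axis) by pathway step, with replicate 1 in blue, replicate 2 in orange and vertical bars for the deposited TPM bounds. Scd2, Fdps and Acly stand highest and Mvd and Scd1 lowest, and the bars of Lss in both libraries and of Insig2 in replicate 1 do not contain the TPM itself.

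Acetyl-CoA supply was led by Acly, the ATP citrate lyase that makes cytosolic acetyl-CoA from citrate. Its level was 17.9 TPM in replicate 1 and 21.3 in replicate 2. In CPM it was 199.8 and 202.9, so the libraries were close once scaled by reads. The 2 libraries divided Acly among its coding models differently. Model Acly-201 was listed at 0 in replicate 1 and at 7.39 TPM in replicate 2, while Acly-207 held 4.50 and 0.53 TPM. Acat2, the cytosolic thiolase that condenses acetyl-CoA in the first step towards mevalonate, stood at 3.61 and 3.32 TPM. Acat1, its mitochondrial relative, was higher at 11.7 and 13.8 TPM. Acat2 counts were not whole, since a few reads were shared with its neighbour Acat3, which had 8.71 and 22.7 counts, so small Acat2 differences are uncertain.

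The mevalonate arm held both the highest sterol gene and the lowest gene of all 29. Hmgcs1, the cytosolic HMG-CoA synthase, stood at 6.90 TPM in replicate 1 and 6.83 in replicate 2. Mvk, mevalonate kinase, was low at 1.16 and 1.40 TPM, and Pmvk, the kinase that follows it, stood at 4.32 and 4.94 TPM. Mvd, the decarboxylase that completes isopentenyl diphosphate, was the lowest of the 29 at 0.24 and 0.71 TPM. Those levels came from 28 counts (exact Poisson interval at 95%, 18.6 to 40.5) and 217 counts (189 to 248). Idi1, which isomerises isopentenyl diphosphate, was listed at 7.35 and 9.41 TPM. Its close relative Idi2 had 0 counts in both libraries. Fdps, the farnesyl diphosphate synthase that feeds both sterols and protein prenylation, stood at 21.4 and 19.3 TPM, the only sterol gene above 20 in either library. In CPM, Fdps was at 59.3 in replicate 1 and 46.6 in replicate 2.

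From squalene on, levels were lower and varied by an order of magnitude along consecutive steps. Fdft1, squalene synthase, stood at 2.35 and 2.58 TPM and Sqle, squalene epoxidase, at 3.04 and 4.20. Lss, which cyclises the epoxide into lanosterol, was at 0.88 and 1.13 TPM. These first 3 steps were all under the median of expressed coding genes in both libraries. Cyp51, the lanosterol demethylase, stood at 3.91 and 5.09 TPM. Msmo1 and Nsdhl, which act in turn to remove the methyl groups at carbon 4, stood at 9.64 and 11.3 TPM for Msmo1 and 2.90 and 3.14 TPM for Nsdhl. On coding models alone the gap was smaller, with 4.55 and 4.38 TPM for Msmo1 and 2.65 and 2.89 for Nsdhl. Hsd17b7, the ketone reductase of the same reaction cycle, was at 1.95 and 0.74 TPM. Tm7sf2, a sterol reductase of the nuclear and endoplasmic reticulum membranes, was at 0.87 and 1.69 TPM. Ebp, the sterol isomerase, stood at 12.2 and 14.7 TPM, the highest of this stretch by gene TPM. On coding models alone it was at 3.43 and 6.65 TPM, below Msmo1 and Cyp51 in replicate 1. Sc5d, a desaturase, stood at 3.42 and 3.87 TPM and Dhcr7, the reductase that turns 7-dehydrocholesterol into cholesterol, at 2.37 and 5.48 TPM.

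By median, the fatty acid genes were higher than the sterol genes in both libraries, with Scd2 highest and Scd1 far below the others. Acaca, the carboxylase that makes malonyl-CoA, stood at 5.51 and 9.08 TPM, and Fasn, which builds palmitate from it, at 7.54 and 10.5. All of Acaca in replicate 1 was placed on model Acaca-201, at 5.51 TPM. In replicate 2 that model was listed at 5.82 TPM, with 1.37 TPM on Acaca-202 and 1.84 TPM on the short model Acaca-203. Scd2, a desaturase that makes oleate and palmitoleate and is the main form in brain and other non-hepatic tissue, was the highest gene of the 29 at 23.9 and 29.9 TPM. Scd1, the desaturase best known from liver and fat, stood at 0.60 and 0.75 TPM. Scd2 was therefore 39.9 times Scd1 in each library, a log2 TPM ratio of 5.32 ± 0.00136. Scd1 and Scd2 had 213 and 9553 counts in replicate 1, and 676.12 and 30615.88 in replicate 2. The counts of replicate 2 were not whole, so some reads there were shared between genes, and which genes was not tested. Both genes lie on chromosome 19, at chr19:44293674-44306864 on the plus strand and chr19:44394455-44407879 on the minus strand. Each has a single model listed. The other members of this gene cluster, Scd3 and Scd4, had 0 counts and 8 and 18 counts.

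Taking the genes by arm, the 17 enzymes from Hmgcs1 to Dhcr7 had a median of 3.04 TPM in replicate 1 and 4.20 in replicate 2. The 5 fatty acid genes Acly, Acaca, Fasn, Scd1 and Scd2 had medians of 7.54 and 10.5 TPM. Acly, counted here with the fatty acid genes, also supplies acetyl-CoA for sterols. The log2 ratio of sterol over fatty acid median was -1.31 ± 0.00322. In both libraries the sterol median was the level of Sqle and the fatty acid median that of Fasn. The small SD is thus that of the ratio of Sqle to Fasn, and does not measure how alike the arms were. Individual genes crossed the order of the medians, with Fdps above Fasn and Scd1 under 16 of the 17 sterol genes by mean TPM. Ebp and Msmo1 were also above Fasn by gene TPM, but on coding models their means of 5.04 and 4.46 TPM were below the 7.85 of Fasn. Over all 29, 18 of 28 neighbours in the order of mean TPM had overlapping ranges between libraries, so most adjacent places are not separated by these data. Scd2 stood apart from Fdps below it, and Acly from Ebp below it.

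All regulators were detected. Srebf2, the gene of SREBP-2, stood at 4.84 TPM in replicate 1 and 5.95 in replicate 2, from 1762 and 5547 counts. Scap, the escort protein, stood at 3.39 and 4.51 TPM. Insig1, itself a target of SREBP, stood at 6.45 and 5.40 TPM. Insig2, its relative with the same retention role, stood at 2.23 and 2.32 TPM, so Insig1 was 2.89 and 2.33 times Insig2. By posterior mean TPM, a second deposited estimate, the ratio was smaller at 1.70 and 1.88, and by coding transcript models alone it was larger at 2.97 and 3.53. Insig1 was the higher gene on every scale tried in both libraries. Stard4, which carries cholesterol between membranes and is a sterol-responsive gene, stood at 4.13 and 5.45 TPM.

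Srebf1, the gene of SREBP-1 at chr11:60199089-60222581 on the minus strand, was listed at 12.2 TPM in replicate 1 and 7.34 in replicate 2, which would put it above Srebf2. By expected counts the order was the opposite. Srebf1 had 1277 and 3853 expected counts, fewer than Srebf2 in each library, and its CPM of 45.3 and 45.9 was nearly equal between libraries. TPM and counts were divided differently among its transcript models. Srebf1-210, a non-coding model of 662 bases at chr11:60204189-60206112 inside the gene, held 61.0% of the TPM of Srebf1 in replicate 1 and 34.6% in replicate 2. It held only 254.67 and 227.68 expected counts, or 19.9% and 5.91% of those of the gene. On coding models alone Srebf1 was at 3.16 and 4.57 TPM, and Srebf2 was 1.53 and 1.30 times higher. The log2 ratio of Srebf2 over Srebf1 was thus -0.82 ± 0.732 by gene TPM, 0.50 ± 0.166 by coding models and 0.50 ± 0.0433 by CPM. The 2 coding models with reads were Srebf1-201, at 1.59 and 3.36 TPM, and the shorter Srebf1-203, at 1.57 and 1.21 TPM. Model Srebf1-204, which reaches the outermost upstream start of the gene, had 0 counts in both libraries. Srebf1-207, a coding model that begins further inside the gene at chr11:60210465, also had 0 counts in both. Srebf1-201 begins at chr11:60220604. The SREBP-1a and SREBP-1c forms were not assigned to models here.

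**Figure D2:**
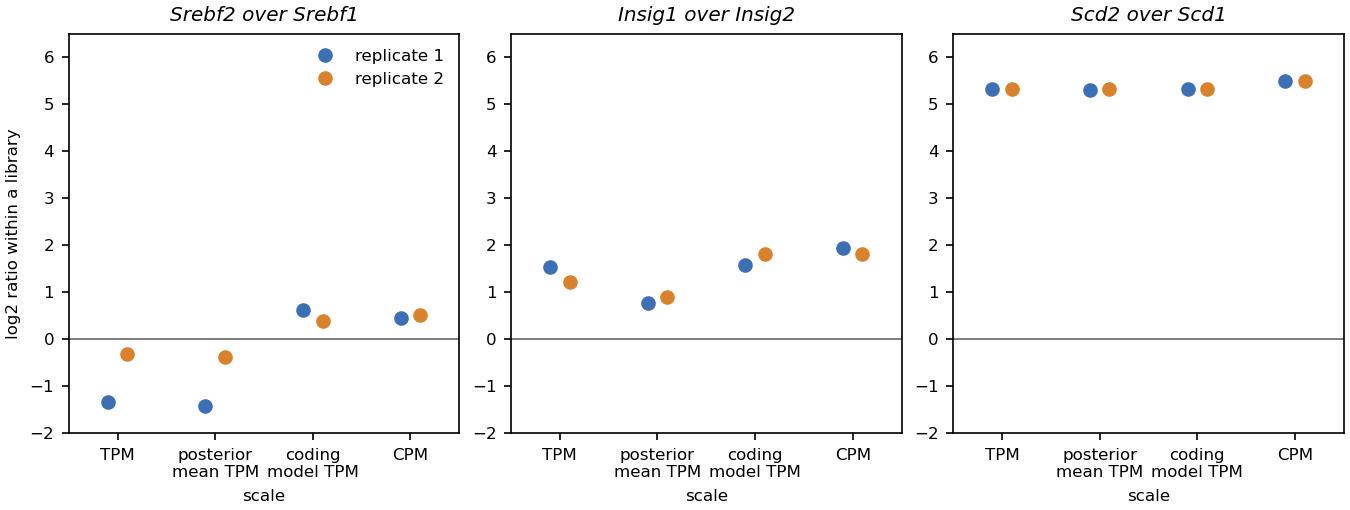
Log2 ratio within each library of Srebf2 over Srebf1, Insig1 over Insig2 and Scd2 over Scd1 on 4 scales, with replicate 1 in blue and replicate 2 in orange. The first pair lies below 0 by both gene TPM estimates and above 0 by coding models and CPM, while the other pairs stay above 0 throughout.

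Other genes of the set also owed part of their level to models of non-coding class, such as transcripts with a retained intron. Of the 24 genes at 1 TPM or more in both libraries, 3 had at least 50% of their TPM on such models in either library, namely Ebp, Msmo1 and Srebf1. That is 12.5%, beside 14.3% of expressed coding genes. In Ebp the retained-intron model Ebp-202 of 1034 bases held 8.77 and 7.54 TPM, or 71.9% and 51.3% of the gene. In Msmo1 the model Msmo1-204 of 816 bases held 4.93 and 6.20 TPM. Lss, which was under 1 TPM in replicate 1, had 36.4% and 69.9% of its TPM on non-coding models. With coding models alone, the median of the 29 was 3.97 ± 0.764 TPM and the number at 1 TPM or more in both libraries was again 24. No TPM lay on non-coding models in 12 of the 29, but of these only Acat2 has a non-coding model listed. For the rest the outcome was set by the annotation, and the share over all genes was not computed.

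**Figure D3:**
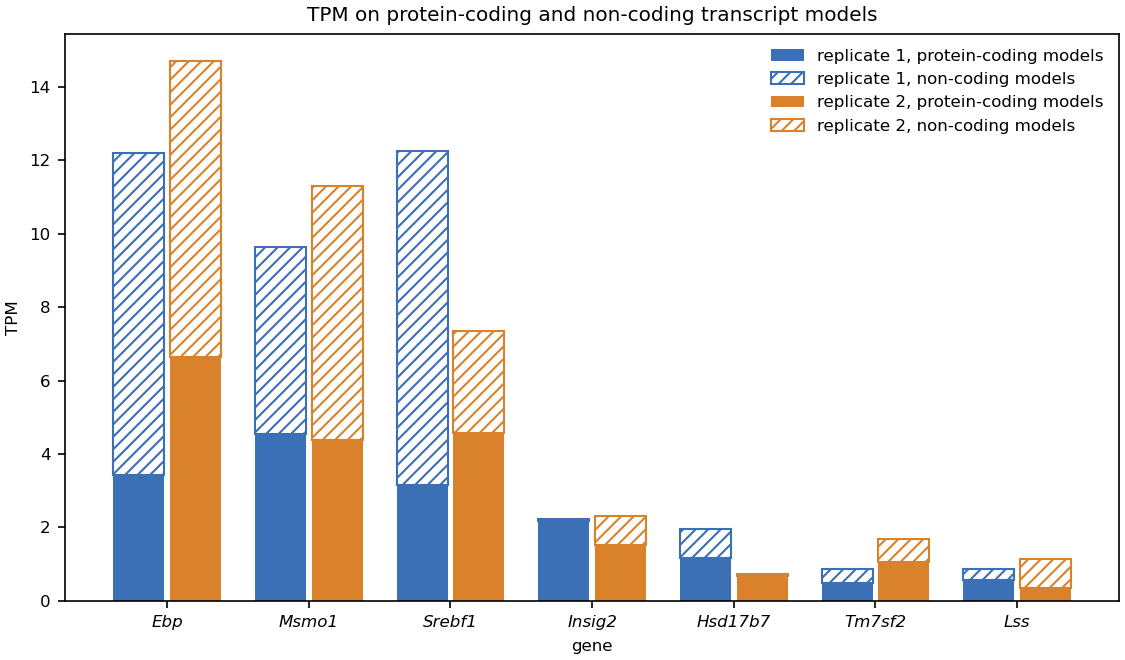
TPM on protein-coding models (solid) and on non-coding models (hatched, stacked) in replicate 1 (blue) and replicate 2 (orange) for the 7 genes with at least 30% of TPM on non-coding models in either library. Coding models of Ebp hold 3.43 and 6.65 TPM, and those of Srebf1 hold 3.16 and 4.57 TPM, well under the gene totals.

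The model of highest TPM differed between libraries in 2 of 17 genes with several models and 1 TPM or more in both libraries, Sqle and Srebf1. That is 11.8%, beside 23.2% of expressed coding genes with several models. In Sqle the coding models 201 and 202, whose starts lie close together, held 1.52 and 1.15 TPM in replicate 1 and 1.69 and 1.88 TPM in replicate 2. The leading model also differed in Lss and Tm7sf2, both under 1 TPM in replicate 1.

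Between libraries, the median log2 CPM ratio of replicate 2 over replicate 1 was 0.02, and 25 of the 29 were within 1.5-fold. The share of all genes within 1.5-fold was not computed, so that count describes the set only. A difference of at least 2-fold was found for 3 of 29, or 10.3%, beside 20.8% of the 15102 genes whose expected counts averaged 10 or more. All 29 had a mean count of at least 100, and at that minimum, chosen after seeing the data, the share of all genes was 6.78%. The share of the set thus lay between these backgrounds and near the second. Of the 9116 expressed coding genes, 61 were at least 2-fold higher in replicate 2 and 71 lower. The 3 genes of the set, Mvd, Tm7sf2 and Hsd17b7, were each under 1 TPM in at least 1 library, so none belongs to that background.

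Mvd and Tm7sf2 were the genes at least 2-fold higher in replicate 2. For Mvd the CPM was 0.994 in replicate 1 (exact Poisson interval 0.661 to 1.44) and 2.58 in replicate 2 (2.25 to 2.95), a ratio of 2.59. Tm7sf2 had 43 counts in replicate 1, with an interval of 31.1 to 57.9, and 356.8 in replicate 2, a ratio of 2.78. These were the lowest counts among the 29. In Tm7sf2, 46.5% of the counts of replicate 1 were placed on the coding model Tm7sf2-205 and 53.5% on non-coding models, 40.7% on the decay-prone model Tm7sf2-208 among them, and the 3 full-length coding models 201, 202 and 203 were listed at 0. Replicate 2 had 0.42 TPM on 201 and 0.61 TPM on the retained-intron model 206. Tm7sf2 also shares 532 exon bases with Vps51 on the same strand in the M21 annotation, a gene at 10.7 and 9.66 TPM, so its low counts are uncertain.

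Hsd17b7 went the other way, with 424 counts in replicate 1 and 577 in replicate 2, which is 15.1 and 6.87 CPM and a ratio of 0.46. Its intervals, 13.7 to 16.6 CPM and 6.32 to 7.45 CPM, did not overlap. The non-coding model Hsd17b7-204 held 0.79 TPM in replicate 1 and 0.07 in replicate 2, and the coding model 201 held 1.16 and 0.66 TPM. Dhcr7 was at 12.7 and 21.4 CPM, a ratio of 1.68, and at 2.37 and 5.48 TPM, a ratio of 2.31. By the ratio of deposited TPM the genes at least 2-fold apart were again 3, with Dhcr7 in place of Tm7sf2. The log2 CPM ratio moved with base composition over 10612 coding genes, with a median of -0.05 in the lowest of 5 equal groups by GC content and 0.08 in the highest. Over the same genes the Spearman correlation of the ratio was 0.13 with GC content and 0.16 with transcript length. Mvd, at 59.0% GC, is in the highest of these groups. Tm7sf2, at 51.0%, is in the middle group, and Hsd17b7, at 43.9%, is in group 2 from the lowest. The log2 ratios of Mvd, Tm7sf2 and Hsd17b7 were 1.37, 1.47 and -1.13. The part of base composition or length in them was not tested.

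**Figure D4:**
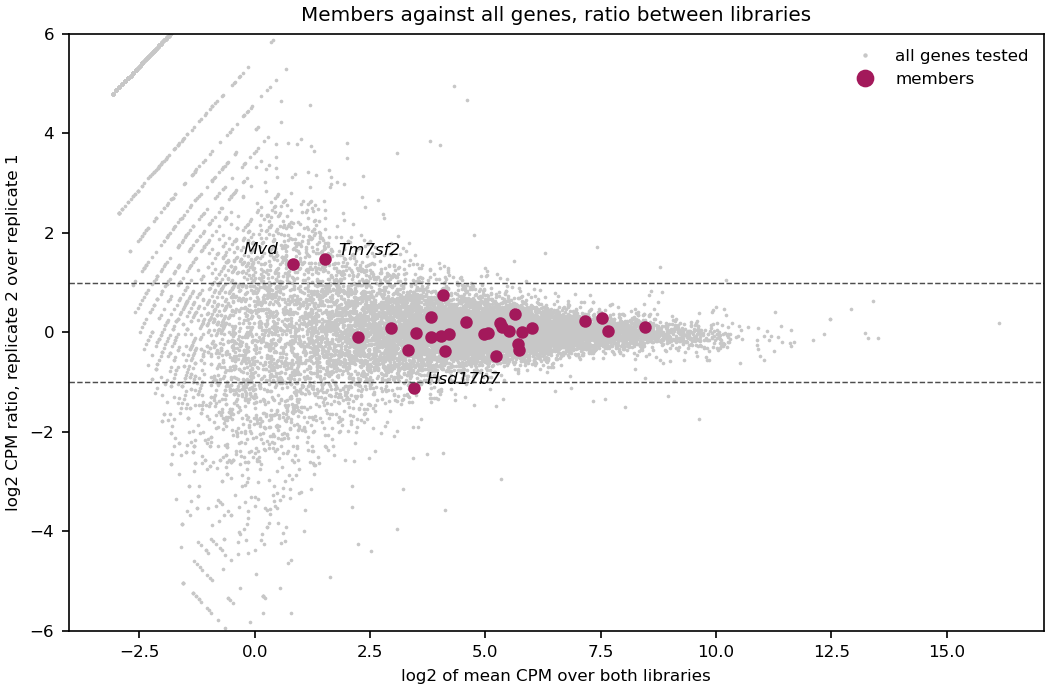
Log2 CPM ratio of replicate 2 over replicate 1 against log2 mean CPM for all 15102 genes tested (grey) and the 29 genes of the set (purple), with dashed lines at 2-fold and ratios beyond 6 outside the axis. Mvd, Tm7sf2 and Hsd17b7 lie beyond the lines.

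The deposited TPM bounds of the 2 libraries did not overlap for 16 of the 24 genes at 1 TPM or more in both, or 66.7%, beside 66.6% of expressed coding genes. These bounds belong to each library alone, with no spread between samples in them, and their level is not given in the sources used here. Over all 29, bounds were apart for 20, of which 16 were higher in replicate 2 and 4 lower. That direction matches the general shift of TPM given above. The genes lower in replicate 2 were Fdps, Hsd17b7, Srebf1 and Insig1.

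Exons of 10 of the 29 overlapped those of another gene in the M21 annotation, 7 of them on the opposite strand and 4 on the same strand. Srebf1 had both kinds. The share over all genes was not computed. The longest overlap was that of Fdps, which shares 1124 bases on the same strand with Gm43738. That coding gene had no values in the deposited gene tables, so no reads were listed under it. Expected counts were not whole in 7 of the 29, and for this too no share over all genes was computed. Fdps was among the 7, at 1671.94 and 3913.58, and which gene shared its reads was not tested. The opposite gene was Ctsb for Fdft1, over 774 bases, with Ctsb at 8.41 and 7.73 TPM. It was Akap9 for Cyp51, over 166 bases, at 19.6 and 17.7 TPM. It was Rai1 for Srebf1, over 109 bases, at 3.23 and 4.67 TPM. Whether reads were counted by strand is not given in the sources used here, so reads in those stretches cannot be told apart with certainty.

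Other genes of lipid metabolism placed the set in its surroundings. Of 75 listed genes 74 were matched, 58 were at 1 TPM or more in both libraries, or 78.4%, and 7 had 0 counts in both. Beside them, 42.5% of nuclear protein-coding genes were at that level, a share against which the list counts below can be read, and 8214 of 21461 had 0 counts in both. Their median was 5.24 and 6.61 TPM. All 7 genes of SREBP processing and decay were at 1 TPM or more in both libraries. Among them were the proteases Mbtps1, at 7.37 ± 1.27 TPM, and Mbtps2, at 5.28 ± 1.98 TPM, which cut SREBP in the Golgi. Ufd1, which helps extract proteins from the membrane for decay, stood at 9.63 and 12.4 TPM. All 11 genes of the isoprenoid branches that draw on farnesyl diphosphate were also at 1 TPM or more in both. They were led by Rabggtb, a subunit of the enzyme that prenylates Rab proteins, at 22.9 ± 0.530 TPM.

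Lists around the fatty acid arm were more mixed. Of 17 genes of elongation and desaturation, 10 were at 1 TPM or more in both libraries, led by Tecr at 39.1 ± 2.26 TPM and Hsd17b12 at 26.1 ± 2.58 TPM, enzymes of the elongation cycle. Of the elongases, Elovl5 stood at 14.8 ± 2.84 TPM and Elovl1 at 11.9 ± 3.71 TPM, while Elovl2, Elovl3 and Elovl4 had 0 counts. All 5 genes of fatty acid activation were at 1 TPM or more in both, with Acsl5 at 39.8 ± 0.0990 TPM. Of 8 genes of carbon supply and lipogenic regulation only 4 were. Slc25a1, the mitochondrial citrate carrier that supplies Acly, led them at 13.1 ± 1.39 TPM. Mlxipl, the carbohydrate-responsive factor ChREBP, and Thrsp, a lipogenic gene of liver and fat, had 0 counts in both libraries, and Me1, which makes cytosolic NADPH, had 0 and 5. Acacb, the mitochondrial relative of Acaca, stood at 0.10 and 0.19 TPM.

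Sterol export and storage genes were present as well. Of 12 such genes 10 were at 1 TPM or more in both libraries. Nr1h2, which encodes the sterol sensor LXR-beta, stood at 23.5 and 15.6 TPM, while Nr1h3, which encodes LXR-alpha, stood at 0.02 and 0.05. The Nr1h2 level came from 793 and 2478 counts, and its CPM was nearly equal between libraries at 28.1 and 29.5. How its TPM was divided among transcript models was not read. Plin2, a coat protein of lipid droplets, stood at 14.4 ± 3.12 TPM. Of 10 fatty acid oxidation genes 7 were at 1 TPM or more in both. Hadha, a subunit of the mitochondrial trifunctional protein, led them at 29.5 ± 2.74 TPM, and Ppara, a factor that drives oxidation in liver, had 0 counts.

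**Figure D5:**
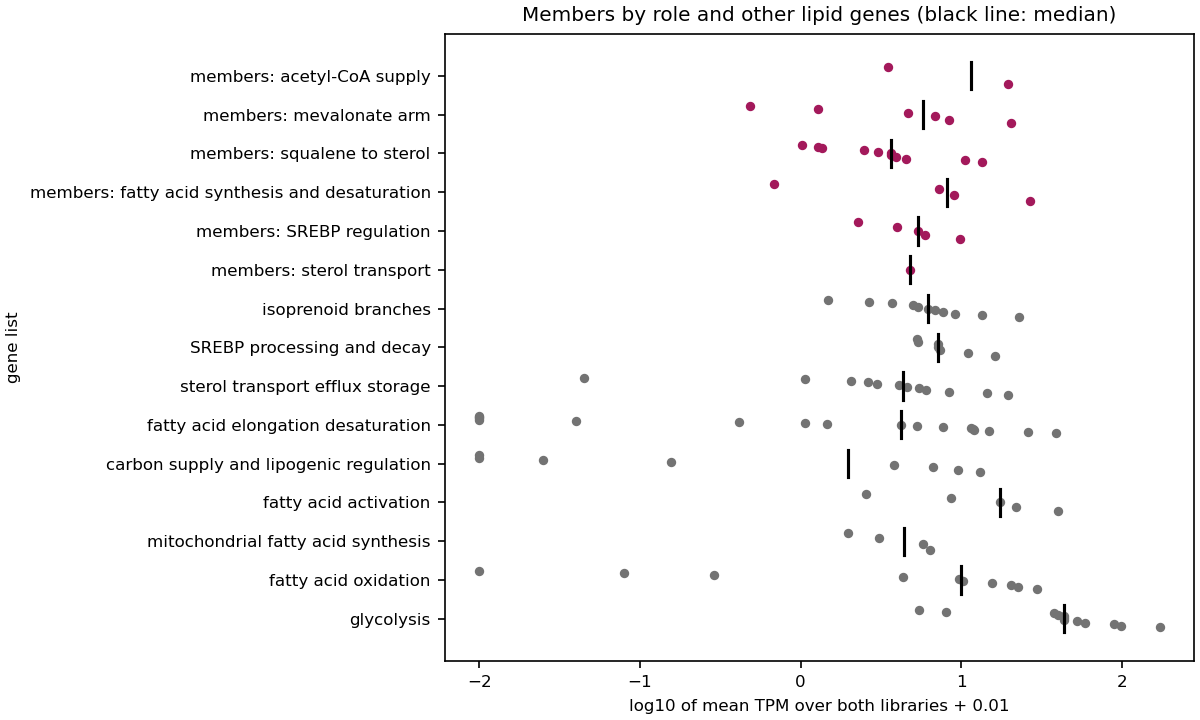
Mean TPM over both libraries, as log10 of TPM + 0.01, for the 29 genes by role (purple) and for 8 lists of other lipid genes and glycolysis (grey), with black lines at list medians. The 29 genes overlap the other lipid lists and lie mostly left of glycolysis, whose median is 43.9 TPM.

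Promoter sequence was read for the genes with an entry in the RefSeq table, windows of 250 bases before to 50 bases after a start on GRCm38.p6. Entries were found for 23 of the 29, in 31 windows. The letters CCAAT, a motif bound by NF-Y, a factor known to act together with SREBP, were searched on both strands. They occurred in the windows of 20 of 23 genes, all but Acat2, Acaca and Scap, beside 41.1% of all 27025 genes with windows and 43.6% of the expressed ones. Counted by window rather than by gene, they occurred in 67.7% of the set's windows and 37.4% of all windows. The letters GGGCGG, a Sp1 motif, occurred in 20 of 23 genes, beside 70.4% of expressed genes. The letters CANNTG, an E-box, occurred in 18 of 23 genes, beside 75.0% of all genes and 65.8% of the expressed ones. The sterol regulatory element, searched as TCACNCCAC on both strands, occurred in 1 of 23, Hmgcs1, beside 1.44% of all genes. It began 137 bases before the start. A match is a description of letters only, and other forms of the element were not searched.

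The 150 bases before the start are shown, 5′ to 3′ on the strand of the gene, for the gene with the sterol element and for a low, a high and a fatty acid gene of the set. Matches to TCACNCCAC and to CCAAT or its reverse complement are in capitals, and in Fasn the last pair of CCAAT matches overlaps. The windows are chr13:119690201-119690350 on the plus strand for Hmgcs1, chr8:122443423-122443572 on the minus strand for Mvd, chrX:8193513-8193662 on the minus strand for Ebp and chr11:120824548-120824697 on the minus strand for Fasn, from RefSeq.
Hmgcs1: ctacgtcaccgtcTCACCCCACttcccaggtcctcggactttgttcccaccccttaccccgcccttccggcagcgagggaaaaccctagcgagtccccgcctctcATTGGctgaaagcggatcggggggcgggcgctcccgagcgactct
Mvd: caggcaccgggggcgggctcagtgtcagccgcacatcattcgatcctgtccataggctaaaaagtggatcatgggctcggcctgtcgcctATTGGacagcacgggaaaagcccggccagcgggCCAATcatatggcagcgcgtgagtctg
Ebp: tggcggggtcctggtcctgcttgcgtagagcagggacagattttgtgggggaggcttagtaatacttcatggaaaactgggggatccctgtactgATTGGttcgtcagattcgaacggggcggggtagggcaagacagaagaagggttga
Fasn: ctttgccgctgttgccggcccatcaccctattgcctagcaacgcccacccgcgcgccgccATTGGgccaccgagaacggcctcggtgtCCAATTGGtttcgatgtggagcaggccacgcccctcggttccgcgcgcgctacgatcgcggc
These genes ranged in mean level from 0.475 TPM for Mvd to 13.5 TPM for Ebp, and each window holds at least 1 CCAAT match.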

How the data were processed

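The members and all gene lists were chosen with earlier results of these data known. Expected counts, TPM and posterior mean TPM per gene and transcript, with bounds of TPM and each transcript's percent of its gene, were deposited by the authors. Per the readme files, the assembly was mm10 and the annotation GENCODE M4. The aligner and quantifier are not given in the sources used here. Deposited percent values of transcripts served as an alternative to shares computed from TPM. GENCODE M21 on GRCm38 gave gene names, gene classes and positions, matched by Ensembl ID for 42462 genes. Entries other than Ensembl genes, with 0 counts in replicate 1 and 83 in replicate 2, stayed out of library sizes.

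Expected counts were rounded and scaled by TMM in edgeR 4.0.16 (R 4.3.3), with DESeq2 1.42.0 size factors as an alternative, and ratios took a prior count of 0.5. The ratio step was tested on simulated data. Other steps ran in Python 3.11.15. With 1 group of 2 libraries there was no comparison of conditions and no p-value, and differences between libraries were read as folds beside the share of all genes past the same fold. By rule every member could be named, with the 3 highest genes of other lists, those at 0 counts in both libraries and near copies of members; some of these are not reported here, and other list genes named were chosen after their values were seen. The stated size ranges, 200 to 1000 for replicate 1 and 187 to 1606 for replicate 2, have no unit. Alternatives were posterior mean TPM, TPM rescaled to nuclear protein-coding genes, CPM, other thresholds and each library alone. Coding models only, a mean count of 100 and the share of expected counts were added after seeing the data.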

Additional observations from a re-analysis of the deposited data

How the results depend on the processing

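Of 59 alternative values, 45 stayed close to the reported one (a count within 1.5 times, a level within 1 SD, the median log2 ratio within 0.1), 12 moved and 2 changed sign. The log2 ratio of Srebf2 over Srebf1, -0.82 by TPM, became 0.50 by CPM and 0.50 by coding models. The share of the short model Srebf1-210 was 47.8% of TPM and 12.9% of expected counts. The median level, 4.50 TPM, became 21.6 when TPM was rescaled to nuclear protein-coding genes, which held 20.1% and 21.5% of TPM. The count at 1 TPM or more, 24, became 29 with TPM rescaled in that way and 11 at 5 TPM. Insig1 over Insig2, 1.38 on the log2 scale, became 0.84 by posterior mean TPM, 1.88 by CPM and 1.70 by coding models. For Scd2 over Scd1, 5.32, the values were 5.31 by posterior mean TPM and 5.49 by CPM. The sterol over fatty acid median, -1.31, became -1.32, -3.38 and -1.26 by posterior mean TPM, CPM and coding models. CPM is not corrected for length. The median log2 ratio between libraries, 0.02, became 0.27 by deposited TPM, where expressed coding genes had 0.20. The cause was not tested.

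With 1 library left out, the median level ranged from 3.91 to 5.09 TPM and the count at 1 TPM or more from 25 to 26. The log2 ratio of Srebf2 over Srebf1 ranged from -1.34 to -0.30, that of Insig1 over Insig2 from 1.22 to 1.53, and the Srebf1-210 share from 34.6% to 61.0%. No paired analysis was possible because there was 1 group. With 2 libraries and no test, differences under 2-fold are values of these libraries only, and Mvd and Tm7sf2 rest on few reads in replicate 1.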
